A study of Homo sapiens with 2 samples.

Results

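The genes described here encode chemokines and lymphotoxins that B cells are known to release or to carry on their surface: CCL22, CCL17, CCL3, CCL4, CCL5, CXCL9, CXCL10, LTA, LTB and TNF. They were chosen as 10 named genes, and every probe set annotated to exactly 1 gene symbol that is among them was taken. This gave 12 probe sets for 9 of the 10 genes, out of 16716 genes named by the probe sets used. No probe set of CCL3 met the rule. The samples are 2 cultures or extracts, labelled replicates 1 and 2, of 1 human lymphoblastoid line, that is, of B cells that Epstein-Barr virus (EBV) has transformed so that they grow without limit. The line is written GM06690 in the titles and GM06990 in the growth protocol; no sample was treated, both samples form 1 group, and both carry the virus. Each was hybridised to 1 Affymetrix Human Genome U133 Plus 2.0 array. There is thus no contrast between conditions, and what can be asked is whether each gene stood above background, how far the arrays differed, and how its receptors, its regulators and its relatives behaved in the same cells.

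Chemokines are small secreted proteins that draw leukocytes towards their source through G-protein-coupled receptors. CC chemokines such as CCL5 and CXC chemokines such as CXCL10 are named for the spacing of their first cysteines. Lymphotoxin and TNF belong to the TNF superfamily, whose ligands act as trimers: LTA is secreted as a homotrimer or held at the membrane in a complex with LTB, and TNF is made as a membrane protein and cut free. Activated B cells make several of these ligands, and in EBV-transformed lines the viral protein LMP1, which acts like a constantly active CD40 receptor, is known to induce CCL22 and CCL17 through NF-kB. The arrays measured messenger RNA, not secreted protein.

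Signals are log2 RMA signals, one per probe set and array, with the mean and SD over both arrays written as mean ± SD (n = 2 throughout). A probe set was counted as above background where it exceeded, on both arrays, the 95th percentile of the signals of 82 genes known mainly from other tissues, among them liver, brain and pancreas genes. That level was 5.84 in replicate 1 and 5.81 in replicate 2. Probe sets differ in affinity, so signals of different genes are not compared as amounts of transcript, and the medians and sums of lists given below only describe the signals of the probe sets used. Of the B-cell markers 9 of 9 measured genes were above background, against 51.1% of all genes, with mean signals between 8.96 and 13.19. T cells, NK cells, macrophages and dendritic cells also make these ligands. Of their markers 0 of 10 T-cell, 0 of 8 NK-cell, 1 of 9 monocyte and macrophage and 1 of 8 dendritic cell genes were above background. The exceptions were MS4A7 (7.22 ± 0.15) and LAMP3 (10.89 ± 0.04), whereas CD3D, CD3E, CD3G, NCAM1, CD14, CSF1R and CD1A all lay below the level on both arrays. PRF1 of the NK-cell list exceeded it in replicate 1 alone and VCAN of the monocyte list in replicate 2 alone. In replicates 1 and 2 the summed linear intensity was 260 and 223 for the T-cell list, 201 and 188 for the NK-cell list, 319 and 348 for the monocyte and macrophage list and 2089 and 1997 for the dendritic cell list, most of it from LAMP3. For the B-cell list it was 24510 and 24921. The part of other cells in the signals below was not tested.

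Of the 9 measured members 7 were above background on both arrays: CCL22, CCL4, CCL5, CXCL10, LTA, LTB and TNF. Over all genes the share above background was 51.1%. The remaining members, CCL17 and CXCL9, exceeded the level in replicate 1 alone and missed it in replicate 2 by less than 0.04 on the log2 scale. Crossing the level on 1 array only happened in 1.53% of all genes, a share that includes genes far from the level. Among the 1000 probe sets nearest in mean signal, the median absolute difference between the arrays was 0.16 for CCL17 and 0.15 for CXCL9. The calls depended on the level: with one taken from 67 olfactory receptor genes CCL17 and CXCL9 were above it on both arrays, and at the 99th percentile of the tissue-restricted genes 1 member, CCL4, was. The median signal of the 9 members was 9.05 and that of all genes 6.10, which describes the probe sets of genes that were picked with earlier results known. In these bulk samples fewer cells with a transcript and less of it per cell cannot be told apart.

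**Figure D1:**
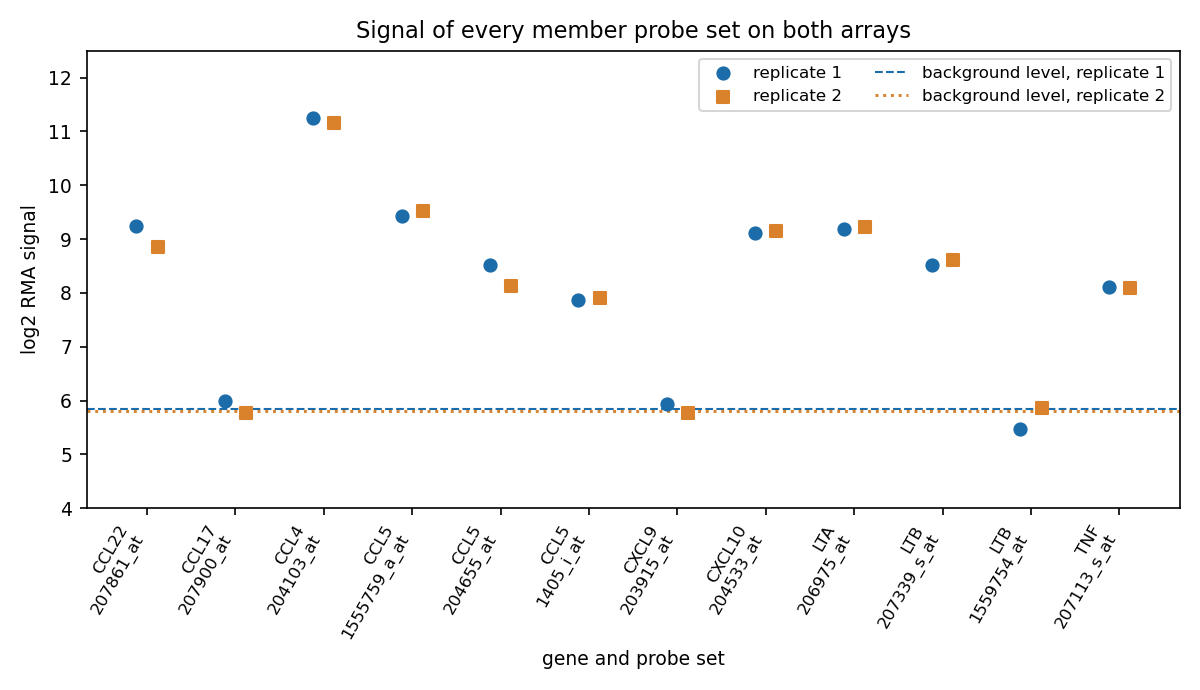
Log2 RMA signal (vertical axis) of the 12 member probe sets (horizontal axis, gene and probe set) in replicate 1 (circles) and replicate 2 (squares), with the background level of each array as a dashed and a dotted line. The probe sets of CCL17 and CXCL9 lie close to the lines, the second LTB probe set lies below its line in replicate 1 and close to it in replicate 2, and the other 9 lie above both; heights of different probe sets cannot be compared.

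CCL22 and CCL17 are the ligands of CCR4, the receptor by which type 2 helper and regulatory T cells find antigen-presenting cells. CCL22, measured by 1 probe set, had a signal of 9.25 in replicate 1 and 8.85 in replicate 2 (9.05 ± 0.28), 3.41 and 3.04 above the level. Both arrays were thus far above background. CCL17, also measured by 1 probe set, gave 5.99 in replicate 1 and 5.77 in replicate 2 (5.88 ± 0.16). It lay 0.15 above the level on replicate 1 and 0.04 below it on replicate 2, at the edge of what the arrays could separate from background. Among the 82 tissue-restricted genes 4 were higher than CCL17 in replicate 1 and 5 in replicate 2.

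The bases before the start of CCL22 in the RefSeq promoter table (build GRCh38.p14, chr16:57358533-57358782, plus strand) are shown because CCL22 is the member of this pair that stood clearly above background. Capitals mark matches to the motifs searched, here the NF-kB consensus: GGG, a purine, any base, any base, a pyrimidine, a pyrimidine, then CC.
CCL22: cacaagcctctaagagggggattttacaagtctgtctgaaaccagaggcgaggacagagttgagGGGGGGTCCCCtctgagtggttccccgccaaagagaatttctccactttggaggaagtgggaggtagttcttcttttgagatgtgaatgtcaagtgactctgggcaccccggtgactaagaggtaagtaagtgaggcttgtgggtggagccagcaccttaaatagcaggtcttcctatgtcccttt
The capitals hold overlapping matches on both strands, in GGGGGGTCCC and GGGGGTCCCC, between -186 and -176, where -1 is the base before the start.

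CCL3, CCL4 and CCL5 are inflammatory CC chemokines made by activated lymphocytes. CCL4, measured by 1 probe set, gave 11.26 in replicate 1 and 11.16 in replicate 2 (11.21 ± 0.07). It stood 5.42 and 5.35 above the level, and none of the 82 tissue-restricted genes was higher in replicate 1 and 1 was in replicate 2. The genome holds near-identical copies of CCL4 whose transcripts its probes may share, so the signal may not be of CCL4 alone. CCL3 had no value of its own. The 1 probe set whose annotation lists CCL3 also lists the copies CCL3L1 and CCL3L3; its signal was 11.85 on both arrays and belongs to no single gene.

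CCL5, a chemoattractant of T cells and monocytes, was measured by 3 probe sets, and all 3 were above background. The brightest, 1555759_a_at, gave 9.42 in replicate 1 and 9.52 in replicate 2 (9.47 ± 0.07). Probe set 204655_at gave 8.52 and 8.12 (8.32 ± 0.28), and 1405_i_at gave 7.86 and 7.91 (7.89 ± 0.04). The 3 means spanned 1.58 on the log2 scale. Of the other 1300 genes above background with 3 probe sets, 78.8% spanned more (median 3.11), and in 43.8% every probe set was above background.

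CXCL9 and CXCL10 attract activated T and NK cells through CXCR3 and are classical products of cells exposed to interferon gamma. CXCL10 gave 9.11 in replicate 1 and 9.16 in replicate 2 (9.13 ± 0.03), 3.27 and 3.35 above the level. CXCL9 gave 5.93 and 5.78 (5.85 ± 0.11), which was 0.10 above the level in replicate 1 and 0.03 below it in replicate 2. Both genes had 1 probe set. The neighbouring relative CXCL11, the third ligand of CXCR3, gave 3.51 and 3.27 (3.39 ± 0.17) by the brighter of its 2 probe sets and was below background on both arrays. Of the 3 CXCR3 ligands CXCL10 was therefore the 1 that was above background on both arrays.

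The bases before the starts of CXCL10 (GRCh38.p14, chr4:76023498-76023747, minus strand) and CXCL9 (GRCh38.p14, chr4:76007510-76007759, minus strand) are set side by side because the genes are close relatives, are near each other on chromosome 4 and fell on different sides of the call. The call of CXCL9 rested on replicate 2, where it lay 0.03 below the level. Capitals mark matches on either strand to the NF-kB consensus, to GAAANNGAA, the core of the interferon-stimulated response element, to TTCNNNGAA, the gamma-activated site, or to TATAAA, the TATA box.
CXCL10: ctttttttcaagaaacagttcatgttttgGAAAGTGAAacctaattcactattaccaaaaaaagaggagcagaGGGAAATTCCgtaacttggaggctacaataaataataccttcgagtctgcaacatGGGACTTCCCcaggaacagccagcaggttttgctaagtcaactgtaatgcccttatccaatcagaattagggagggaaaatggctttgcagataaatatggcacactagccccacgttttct
CXCL9: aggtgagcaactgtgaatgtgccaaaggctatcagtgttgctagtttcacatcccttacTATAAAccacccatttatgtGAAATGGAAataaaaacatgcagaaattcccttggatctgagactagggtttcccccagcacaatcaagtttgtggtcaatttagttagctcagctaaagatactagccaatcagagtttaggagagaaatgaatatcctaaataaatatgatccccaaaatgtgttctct
In the CXCL10 window the response element core is GAAAGTGAA at -221 to -213, and the NF-kB matches are GGGAAATTCC at -177 to -168 and GGGACTTCCC, which matches on both strands, at -122 to -113. The CXCL9 window holds a response element core, GAAATGGAA at -171 to -163, and TATAAA at -191 to -186. It holds no match to the NF-kB consensus as searched, and NF-kB sites with other letters were not searched for. Whether the matches bear on the difference in call was not tested.

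LTA, LTB and TNF encode the lymphotoxins and tumor necrosis factor, which shape lymphoid tissue and drive inflammation. LTA gave 9.18 in replicate 1 and 9.22 in replicate 2 (9.20 ± 0.02) by 1 probe set. TNF gave 8.12 and 8.09 (8.10 ± 0.02), also by 1 probe set, 2.28 above the level on both arrays. LTB, the subunit that anchors lymphotoxin to the membrane, had 2 probe sets that did not give the same call. Probe set 207339_s_at gave 8.53 and 8.62 (8.57 ± 0.06), 2.69 and 2.81 above the level. Probe set 1559754_at gave 5.48 and 5.87 (5.67 ± 0.28), below the level in replicate 1 and 0.06 above it in replicate 2. The means of both LTB probe sets were 2.90 apart. Of the other 2474 genes above background with 2 probe sets, 28.7% had a wider gap (median 1.72). In 62.1% of these 2474 genes every probe set was above background, unlike in LTB.

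The windows of LTB (GRCh38.p14, chr6:31582426-31582675, minus strand) and TNF (GRCh38.p14, chr6:31575315-31575564, plus strand) are shown as those of adjacent genes that were both above background. Capitals mark the same motifs.
LTB: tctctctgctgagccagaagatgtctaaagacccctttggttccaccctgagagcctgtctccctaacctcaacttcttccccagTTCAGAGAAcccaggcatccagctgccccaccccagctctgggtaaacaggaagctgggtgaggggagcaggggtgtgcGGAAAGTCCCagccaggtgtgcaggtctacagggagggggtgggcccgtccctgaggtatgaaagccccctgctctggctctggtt
TNF: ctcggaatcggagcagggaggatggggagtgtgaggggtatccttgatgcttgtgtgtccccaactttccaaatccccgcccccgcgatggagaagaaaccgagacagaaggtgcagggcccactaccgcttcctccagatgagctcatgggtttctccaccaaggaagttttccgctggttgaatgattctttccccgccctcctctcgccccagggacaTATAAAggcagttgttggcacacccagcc
The LTB window holds GGAAAGTCCC, an NF-kB match on the opposite strand, at -86 to -77, and TTCAGAGAA, a gamma-activated site match, at -165 to -157. The TNF window holds TATAAA at -29 to -24 and no match to the other 3 motifs as searched. NF-kB sites with other letters were not searched for. LTA has 2 starts in the table. Before the second one lie the NF-kB matches GGGGGCTTCC at -104 to -95 and, on both strands, GGGGCTTCCC at -103 to -94. That window also holds TATAAA at -31 to -26 and the gamma-activated site match TTCCCAGAA at -202 to -194. The window of the first start holds gamma-activated site matches only, TTCAGGGAA at -151 to -143 and TTCCCAGAA at -12 to -4.

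The promoter table matched 7 of the 10 members, and CCL17, CCL4 and CCL5 are named only. Among the 250 bases before each start, an NF-kB match was found for 4 of the 7 members (CCL22, CXCL10, LTA and LTB) and in 9.96% of the 35116 windows of the table. The response element core was found for 3 of 7 (CXCL9, CXCL10 and CCL3), against 6.88% of windows. The gamma-activated site was found for 2 of 7 (LTA and LTB), against 6.57%. The letters TATAAA were found for 4 of 7 (CCL3, CXCL9, LTA and TNF), against 10.7%. They were counted anywhere in the window: from -29 in CCL3 and TNF, from -31 in LTA, but from -191 in CXCL9. Some members have several windows and each window of the table was counted once, so these shares describe letters and are not a comparison of members with other genes. A link between the matches and the signals of the members was not tested.

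The arrays differed little for most members. By the brightest probe set of each gene, 5 members were higher in replicate 1 and 4 in replicate 2, and the median absolute difference was 0.09, against 0.10 for all genes and 0.07 for those above background. None of the 12 member probe sets differed by over 1 on the log2 scale, or by over 0.58; of the 8800 genes that exceeded the level on either array, 0.0341% passed the first of these limits and 0.648% the second. CCL22 had the largest difference among the 12 probe sets, -0.40 (replicate 2 minus replicate 1). Among the 1000 probe sets nearest to it in mean signal the median absolute difference was 0.07, and 3 differed more. CCL22 has no further probe set in the files by which to check this. CCL5 probe set 204655_at differed by -0.39, with 19 of its 1000 nearest probe sets differing more, while the other CCL5 probe sets differed by 0.10 and 0.05 in the opposite direction. The dim LTB probe set differed by 0.39, and 136 of its 1000 nearest probe sets differed more. CXCL10 (0.05), LTA (0.04) and TNF (-0.02) differed by less than the median of probe sets of like signal.

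**Figure D2:**
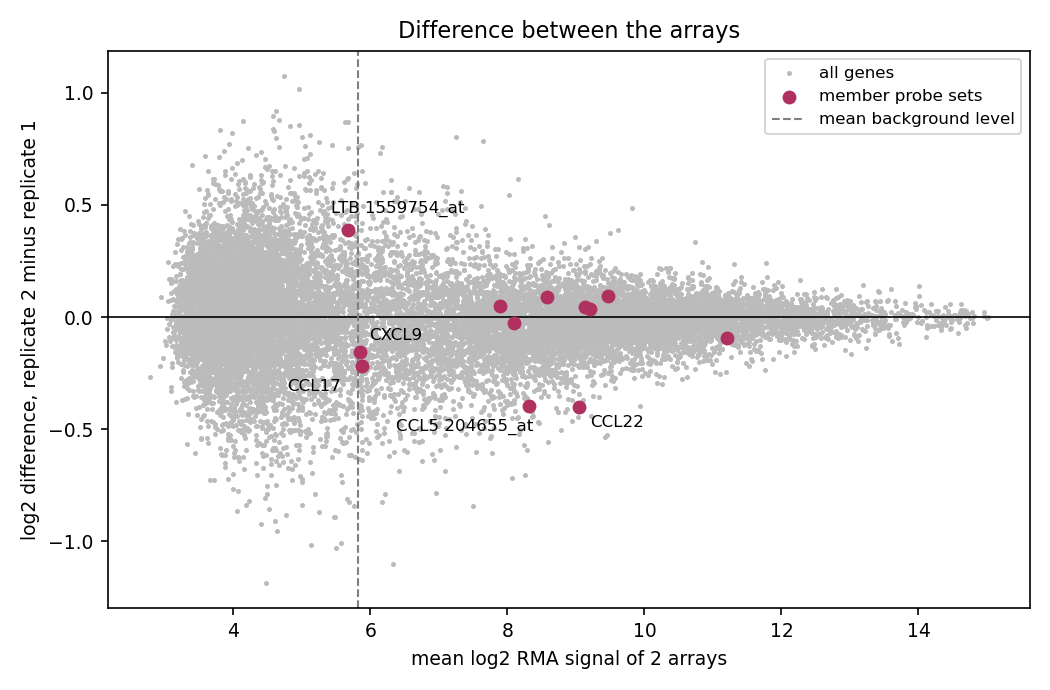
Difference between the arrays (vertical axis, replicate 2 minus replicate 1, log2) against the mean signal (horizontal axis, log2 RMA signal) for all genes by their brightest probe set (grey) and for the 12 member probe sets (red). CCL22 and CCL5 probe set 204655_at lie near -0.4 at the lower edge of the cloud at their signal, and the other members lie within it.

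The receptors of the chemokine members were mostly not above background in the same cells. Of 5 measured receptors 1 was above background, against 51.1% of all genes: CCR1, a receptor of CCL3 and CCL5. Its brighter probe set gave 6.60 in replicate 1 and 5.81 in replicate 2 (6.21 ± 0.56), the second value clearing the level by less than 0.01, and its other probe set was not above background. CCR4, the receptor of CCL22 and CCL17, gave 4.21 and 4.04 (4.13 ± 0.12). CXCR3, the receptor of CXCL9 and CXCL10, gave 5.75 and 5.45 (5.60 ± 0.21). The atypical receptors ACKR1 (5.15 ± 0.02) and ACKR2 (4.51 ± 0.11), which take up chemokines without signalling through G proteins, were below the level too. The median of the 5 was 5.15, a signal below the level.

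Among the receptors of the lymphotoxins and TNF 2 of 4 were above background, against 51.1% of all genes. TNFRSF1B, the TNF receptor found mainly on leukocytes, gave 7.82 in replicate 1 and 7.54 in replicate 2 (7.68 ± 0.20). TNFRSF14, which binds LTA and TNFSF14, gave 8.87 and 8.77 (8.82 ± 0.07). TNFRSF1A, the death-domain receptor of TNF and LTA, gave 5.75 and 5.47 (5.61 ± 0.19), and LTBR, the receptor of the membrane-bound LTA and LTB complex, gave 4.25 and 4.21 (4.23 ± 0.03). Neither was above the level on either array, but TNFRSF1A lay close to it in replicate 1 and was above some of the lower levels tried. The list's median was 6.65. LTB was thus above background in cultures in which its receptor was not, and CCL22 in cultures in which CCR4 was not.

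The member chemokines stood among relatives that were nearly all at background. Of the 6 measured member chemokines 4 were above background, against 1 of 32 other chemokines and 51.1% of all genes. The median signals were 9.09 for the member chemokines and, at background, 4.02 for the other chemokines. The members were picked as B-cell products with earlier results of these data known, so this contrast describes the choice. The exception was XCL1, or lymphotactin, a chemokine of T and NK cells, which gave 6.61 and 6.86 (6.74 ± 0.18) by 1 of its 2 probe sets. CCL28 exceeded the level by less than 0.01 in replicate 2 alone (5.40 and 5.82). CCL1, which binds CCR8, gave 4.02 ± 0.15, CCL2, a monocyte attractant, gave 3.73 ± 0.37, and CCL7 gave 3.43 ± 0.17. The remaining relatives had mean signals between 3.39 (CXCL11) and 5.65 (CXCL17).

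Other TNF superfamily ligands were above background in 8 of 13 cases (61.5%, against 51.1% of all genes), with a median of 8.07. All 3 of LTA, LTB and TNF were, with a median of 8.57. Those above were CD70 (10.18 ± 0.10), the ligand of CD27; TNFSF4 (9.50 ± 0.27), the ligand of OX40; TNFSF9 (8.49 ± 0.25), the ligand of 4-1BB; TNFSF10, or TRAIL (8.92 ± 0.04); TNFSF11, or RANKL (8.44 ± 0.33); TNFSF13, or APRIL (6.67 ± 0.12); TNFSF13B, or BAFF (9.43 ± 0.03); and TNFSF14, or LIGHT (8.07 ± 0.11). TNFSF14 shares the receptors LTBR and TNFRSF14 with the lymphotoxins. FASLG (4.19 ± 0.08), TNFSF8 (4.22 ± 0.31), TNFSF15 (3.99 ± 0.20), TNFSF18 (4.30 ± 0.26) and EDA (4.47 ± 0.31) were below background on both arrays.

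**Figure D3:**
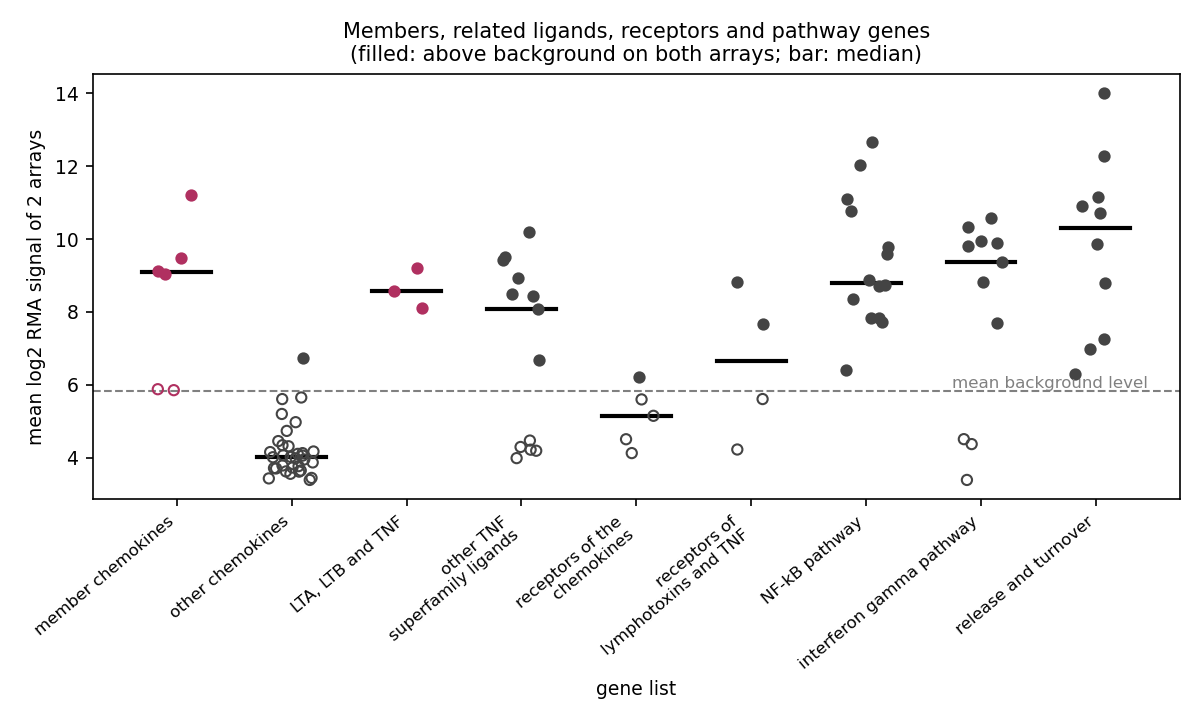
Mean log2 RMA signal of both arrays (vertical axis) for each measured gene of the member groups (red) and of the related lists (dark grey), with filled points above background on both arrays, open points not, bars at list medians and the mean background level dashed. Of the member chemokines 4 of 6 are filled, against 1 of 32 other chemokines, while all 14 NF-kB genes are filled.

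CD40 and LMP1 act on several of these ligands through the NF-kB pathway. Its genes were above background in 14 of 14 measured cases, against 51.1% of all genes, with a median of 8.80. NFKB1 (10.76 ± 0.01), the precursor of the p50 subunit, NFKB2 (9.60 ± 0.06), the precursor of p52, and RELA (8.71 ± 0.07), the subunit p65, were the first of them. The kinase MAP3K14, or NIK, which starts the alternative pathway downstream of LTBR and CD40, gave 7.74 ± 0.11. RELB, the partner of p52, gave 6.52 and 6.28 (6.40 ± 0.17), and the inhibitors NFKBIA (12.66 ± 0.01) and TNFAIP3 (12.02 ± 0.02), themselves NF-kB targets, were also above the level.

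Of 11 measured genes of the interferon gamma pathway (median 9.38) 8 were above background, against 51.1% of all genes. The receptor chains IFNGR1 (9.94 ± 0.10) and IFNGR2 (9.89 ± 0.06), the transcription factor IRF1 (9.38, SD under 0.01) and the induced GTPase GBP1 (9.82 ± 0.34) were among them. IFNG itself (4.37 ± 0.01), the induced enzyme IDO1 (4.51 ± 0.14) and CXCL11 were below background on both arrays. CXCL10 was therefore above background in cultures in which the transcripts of interferon gamma and of CXCL11 were not.

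Genes that release these ligands or turn over their transcripts were above background in 10 of 10 cases, against 51.1% of all genes. The list's median was 10.29. ADAM17, the protease that sheds TNF, gave 8.79 ± 0.02, and RHBDF2, which brings it to the cell surface, gave 6.97 ± 0.11. SPPL2A, which cuts the TNF stub left in the membrane, gave 10.73 ± 0.02. SRGN, a granule proteoglycan that binds chemokines, gave 14.01 ± 0.10. ZFP36, which destabilises TNF messenger RNA, gave 9.85 ± 0.04. DPP4, a surface peptidase that trims several chemokines, gave 6.30 ± 0.43 by 1 of its 3 probe sets and was 0.61 higher in replicate 2.

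The members lie in gene clusters, and the genes beside them were partly above background. Of 31 measured genes within 3 places of a member in the order of the RefSeq gene table, 15 (48.4%) were above background, against 51.1% of all genes. On chromosome 16 the order is CCL22, CX3CL1, CCL17, and CX3CL1 (4.34 ± 0.17), between both members, was below background. CIAPIN1 (10.36 ± 0.04), next after CCL17, COQ9 (9.82 ± 0.04), which follows it, and ARL2BP (9.60 ± 0.05), before CCL22, were above it, as were 5 of 7 neighbours in all.

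On chromosome 17 CCL5 had 1 of 6 neighbours above background, TAF15 (10.49 ± 0.09). CCL4 had 3 of 6, all on 1 side: ZNHIT3 (10.22 ± 0.04), MYO19 (9.14 ± 0.12) and PIGW (9.11 ± 0.02). The measured chemokine genes on its other side, CCL18 (3.72 ± 0.05), CCL23 (4.06 ± 0.22) and CCL16 (4.13 ± 0.30), were below background. CCL3, also on chromosome 17, is skipped here because it has no probe set of its own. The probe set it shares with CCL3L1 and CCL3L3 gave 11.85 on both arrays. On chromosome 4, ART3 (3.74 ± 0.34), between CXCL9 and CXCL10, and CXCL11, after CXCL10, were below background, whereas NUP54 (10.96 ± 0.01), SDAD1 (7.62 ± 0.02) and NAAA (7.81 ± 0.29) were among the 4 of 7 neighbours above it. On chromosome 6 LTA, TNF and LTB follow each other and all 3 were above background. LST1 (5.62 ± 0.05) and NFKBIL1 (5.70 ± 0.16), the measured genes directly on either side of the 3, were not, and of 6 neighbours MICB (10.37 ± 0.02) and AIF1 (7.37 ± 0.08) were above background. Genes without a usable probe set are skipped in these orders.

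**Figure D4:**
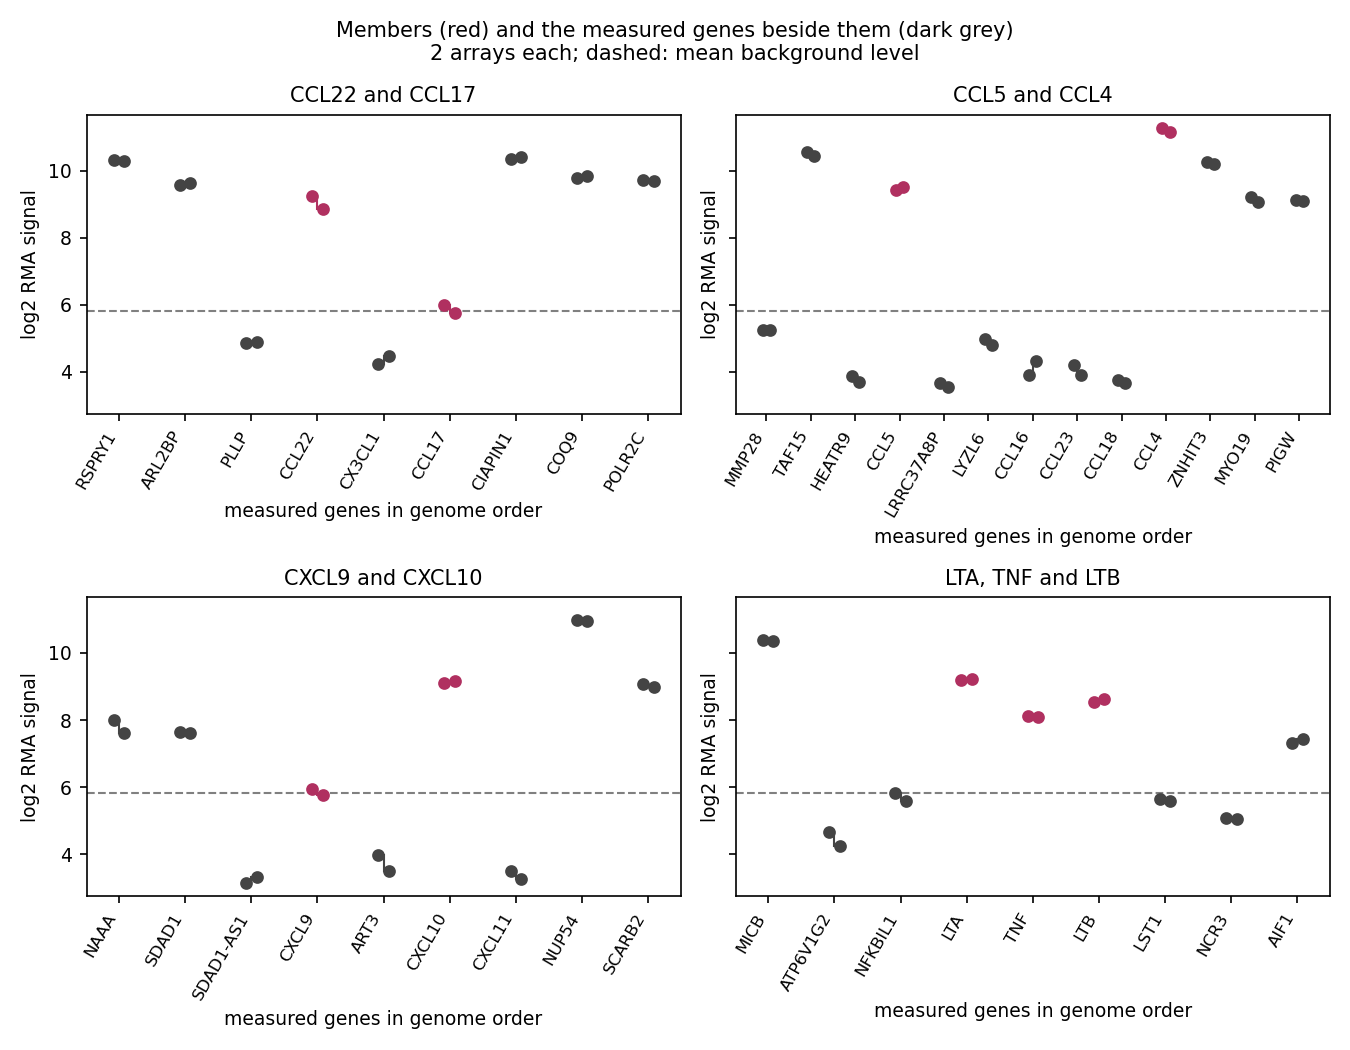
Log2 RMA signal on both arrays (vertical axis; joined points, replicate 1 left) of the members (red) and of the measured genes beside them (dark grey) in genome order (horizontal axis), with the mean background level dashed. LTA, TNF and LTB are above the level side by side, whereas CX3CL1 between CCL22 and CCL17, and ART3 and CXCL11 beside CXCL10, are below it.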

How the data were processed

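The labels give 1 group of 2 lymphoblastoid samples. The deposited values are probe set intensities on a linear scale, made by the authors with RMA, per the submitters' processing notes; its version and the genome build are not given in the sources used here. The method normalises the arrays to each other and gives no detection call. The log2 of each value was taken with pandas 2.3.3 and numpy 2.4.6.

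Of 36289 probe sets 29493 had 1 gene symbol in the platform annotation, 1407 several and 5389 none; symbols were updated by Entrez ID for 29461 from the RefSeq gene table (GRCh38.p14), which also gave gene order. A gene was represented by its brightest probe set. The background level came from 96 listed tissue-restricted genes, 82 of them measured. The scripts were tested on simulated data. With 1 group no test was run and no p-value is given; the number of arrays limits the precision, and the labels do not say whether the replicates are separate cultures, so their spread may be technical.

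The members and the 7 pathway and 5 marker lists were chosen with earlier results of these data known. All members were named, with the first 3 measured genes of each pathway list, the exceptions where these were 5 or fewer, all other chemokines and TNF ligands above background, and up to 3 neighbours above background per cluster; further genes were named after their values were seen. Alternatives changed the level, the probe sets, the normalization, the array and the number of neighbours. Promoter sequences are RefSeq's (GRCh38.p14); NF-kB, response element, gamma-activated site and TATA box matches were searched on both strands.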

Additional observations from a re-analysis of the deposited data

How the results depend on the processing

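The count of members above background was 7 of 9 and depended on the level. All 9 were above it at the 75th percentile of the reference signals, with olfactory receptor genes as reference, with the mean of all probe sets of a gene, and without KRT10 and MBP among the reference genes, an alternative chosen after seeing the data. The share of all genes above background was then 62.4%, 56.2%, 48.3% and 52.7%. It was 8 of 8 without probe sets ending in _x_at or _s_at, against 47.5% of the 13384 genes then measured. In that setting TNF was unmeasured, the level was lower and LTB was counted by its dim probe set alone. After a second quantile normalization the count was 7 of 9, against 51.1% of all genes. At the 99th percentile, which KRT10 and MBP set at 10.47 and 10.54 on the arrays, it was 1 of 9, CCL4. Without replicate 1 it was 7 of 9, against 51.8% of all genes, and without replicate 2 it was 9 of 9, against 51.9%. At the 99th percentile the counts were also 0 of 5 chemokine receptors, 0 of 4 lymphotoxin and TNF receptors, 0 of 32 other chemokines, 0 of 13 other TNF ligands, 4 of 14 NF-kB genes, 1 of 11 interferon gamma genes, 5 of 10 release and turnover genes and 1 of 31 neighbours, and 11.4% of all genes were above it. At the 75th percentile they were 3 of 5 chemokine receptors and 6 of 32 other chemokines, and with olfactory receptors 2 of 5 and 3 of 32. Of the lymphotoxin and TNF receptors 3 of 4 were above with both of these levels, and also without KRT10 and MBP. With the mean of all probe sets 0 of 32 other chemokines were above. Without _x_at and _s_at probe sets 2 of 4 chemokine receptors and 6 of 7 NF-kB genes were, against 47.5% of the genes then measured. Without one array the count of other chemokines ranged from 1 to 2. With 5 places on each side 24 of 47 neighbours were above. Over the pathway lists 48 alternative counts stayed within 1.5 times their value and 15 did not. This tally compares counts and not shares, so a list also moved where fewer of its genes were measured, as with the 6 of 7 NF-kB genes. The levels of the 12 member probe sets moved by less than 1 SD after a second quantile normalization, and the differences between the arrays moved by at most 0.04, with 1 changing sign (TNF, the smallest). At the 75th percentile 4 of 10 T-cell, 2 of 8 NK-cell, 3 of 9 monocyte and macrophage and 2 of 8 dendritic cell markers were above background too, and without _x_at and _s_at probe sets 2 of 9, 1 of 5, 1 of 8 and 2 of 8 were. CCL3 has no value because its probe set lists 3 genes, and signals near the level have no firm call. No paired analysis was possible because there is 1 group.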
